A study of Mus musculus with 9 samples.

Results

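Transcripts of 67 histone modifying enzyme genes were followed in mouse eggs that lacked Dicer, eggs that lacked Dgcr8 and wild-type eggs. The genes were taken by name, as every gene on the array whose symbol starts with Kdm, Kmt, Setd, Prmt, Kat, Hdac or Sirt followed by a digit. Hdac1 was left out. They are 67 of the 19938 genes with a probe set of their own, and where a gene had several probe sets, the one with the highest average signal was read. A log2 signal of at least 4 in at least 3 arrays was required for a test, and 65 of the 67 met it.

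Eggs were ovulated oocytes at metaphase II from mice given as C57BL/6, collected 16 h after human chorionic gonadotropin (hCG). All mice, of every genotype, were superovulated with 7.5 IU of PMSG and then 7.5 IU of hCG, and cumulus cells were removed with hyaluronidase. The groups were Dicer knockout, Dgcr8 knockout and wild type, with 3 biological replicates and 1 array each. How the alleles were deleted, how many eggs were pooled, and whether replicates came from separate females are not stated in the labels, so p-values measure the spread between these arrays. Dgcr8 helps to cut primary microRNA transcripts, while Dicer makes both microRNAs and the endogenous small interfering RNAs of the oocyte. The design asks which transcripts depend on microRNAs and which depend on Dicer more widely.

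These enzymes write and erase the marks of chromatin. Kmt and Setd proteins place methyl groups on lysines and Prmt proteins on arginines, and Kdm proteins remove methyl groups from lysines. Kat proteins place acetyl groups, and Hdac and Sirt proteins remove them. Growing oocytes set up their chromatin before transcription stops, so a metaphase II egg holds stored transcripts, many of which serve the early embryo. Several members, such as Setd3 and the mitochondrial sirtuins, act mainly on proteins other than histones.

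The log2 signal of Dicer1 was 10.81, 10.77 and 10.57 in Dicer knockout eggs, 11.65, 11.63 and 11.75 in Dgcr8 knockout eggs and 11.66, 11.67 and 11.67 in wild-type eggs, with the Dicer knockout arrays below all others. Whether the probes lie in the deleted parts was not checked. Dgcr8 stood at 8.37, 8.28 and 8.72 in Dicer knockout eggs, 5.47, 5.98 and 5.70 in Dgcr8 knockout eggs and 8.85, 9.05 and 8.97 in wild-type eggs. The Dgcr8 knockout arrays were far below all others, and the Dicer knockout arrays lay below wild type without passing the test (-0.50, adjusted p 0.0644). Hdac1, a reported target of oocyte small interfering RNAs, was higher in Dicer knockout eggs by 2.21 ± 0.15 (log2, SE). The 10 oocyte markers averaged 11.12 to 11.40 in log2 signal in the 9 arrays. Across arrays, 12 cumulus and granulosa markers averaged 5.15 to 5.26, and 6 oviduct markers 6.45 to 6.75. The 5 blood and immune markers averaged 4.85, 5.00 and 5.48 in Dicer knockout eggs against 4.75 to 4.98 in the other 6 arrays, with Lyz2 at 3.68, 3.93 and 6.13 in Dicer knockout eggs. Of these markers Zp2 (0.40), Gata4 (0.59) and Cd68 (0.96) were called higher in Dicer knockout eggs, 1 of 10 oocyte, 1 of 11 cumulus and granulosa and 1 of 5 blood markers tested, and 0 of 6 oviduct markers were called by limma. Their part in the results was not tested. The median array signal over all probe sets was 5.48 to 5.58. Values are relative, so less RNA per egg and a shift of all transcripts alike cannot be seen.

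In Dicer knockout eggs 8 of these genes were called against wild type, each with an estimated difference under 2-fold. The 95% intervals of Kmt2a (0.70 to 1.26, log2) and Sirt5 (0.33 to 1.02) reached past 2-fold. A gene that was not called may still differ. Of the 65 tested, 3 rose and 5 fell in Dicer knockout eggs against wild-type eggs, beside 4.87% of all genes tested that rose and 6.47% that fell. A difference of 2-fold or more was called in 2.07% of all genes. Kmt2a, Sirt5 and Kdm1b were the members that rose, while Kat14, Sirt2, Kdm7a, Kdm6a and Kat6b fell. The 8 calls are 12.3% of the members tested, beside 11.3% of all 17324 genes tested, so the share called is near the background. Among genes with a signal of at least 6 in at least 3 arrays, 8 of 51 members (15.7%) were called, beside 17.8% of 10181 genes. Kmt2a met this floor only through its Dicer knockout arrays, so its place in that set depends on its rise. The median log2 difference over the members was 0.0012, beside -0.03 over all genes tested, and for 60 of the 65 the difference was under 0.5 in size. For 48 of the 65 the whole 95% interval lay within 0.5 of 0. At an unadjusted p under 0.05 stood 15 of the 65 members, beside 23.7% of genes. A gene was called where its limma p, adjusted by Benjamini-Hochberg across every gene tested, was under 0.05.

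**Figure D1:**
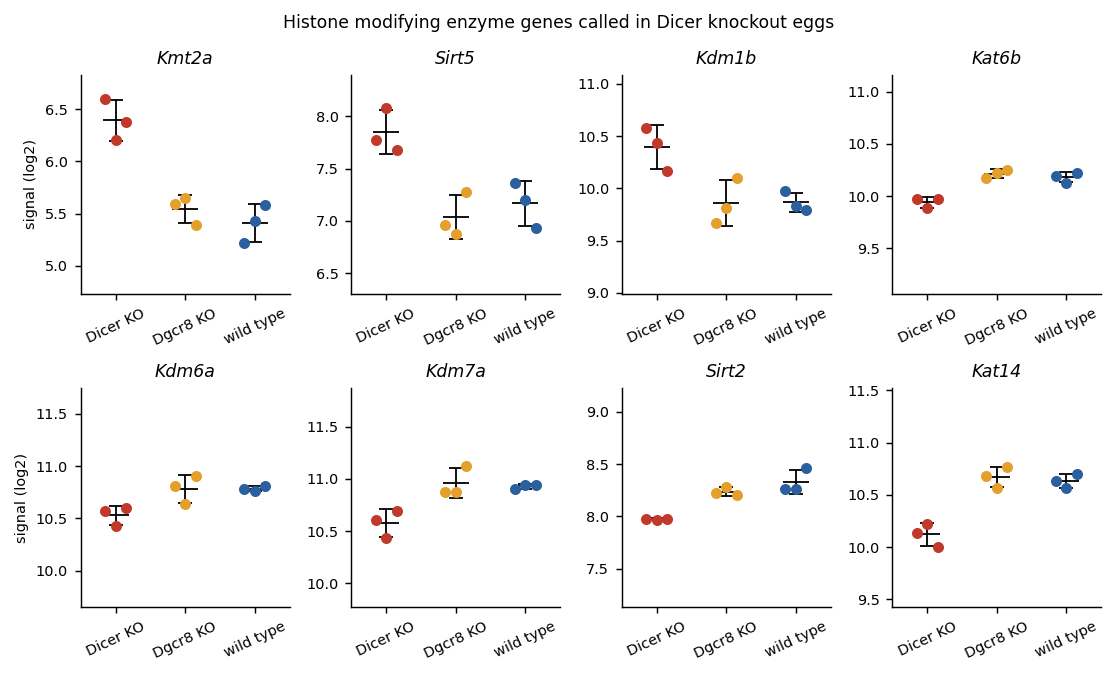
Log2 signal (vertical axis, the same span in each panel) of the 8 members called in the Dicer knockout comparison, by genotype. Points are single arrays, and bars are the mean and SD of 3. In every panel the 3 Dicer knockout points lie apart from the 3 wild-type points, and the Dgcr8 knockout points overlap with wild type.

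Kmt2a and Kat14 kept their calls with each of the 9 arrays left out in turn. Their promoters are shown because they belong to these 2 calls, 1 higher and 1 lower. Sequences are from RefSeq (GRCm38.p6), 5′ to 3′ on the gene's strand, up to the annotated span of the gene or of another protein-coding gene. Capitals mark GC boxes, GGGCGG or its reverse complement CCGCCC, the letters bound by Sp1-type factors. Kmt2a lies on the minus strand, with the bases at chr9:44881353-44881539, and Kat14 on the plus strand, with the bases at chr2:144368782-144368982.
Kmt2a: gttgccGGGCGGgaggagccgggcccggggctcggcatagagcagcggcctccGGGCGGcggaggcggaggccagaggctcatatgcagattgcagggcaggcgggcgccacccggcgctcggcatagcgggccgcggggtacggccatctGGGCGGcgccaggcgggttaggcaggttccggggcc
Kat14: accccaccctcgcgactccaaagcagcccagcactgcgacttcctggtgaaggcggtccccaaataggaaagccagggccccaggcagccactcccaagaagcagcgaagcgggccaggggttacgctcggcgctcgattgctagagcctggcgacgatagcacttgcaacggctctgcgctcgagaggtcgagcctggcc
The stretch printed for Kmt2a (187 bases) holds 3 of the 4 GC boxes of its window. That for Kat14 (201 bases) holds none, and the 1 GC box of its window lies beyond it, within the span of Pet117. In windows of 250 bases before the start, 1 per gene, a GC box on either strand was present in 32 of the 56 members with a window (57.1%), beside 32.9% of all 27025 genes with one. CCAAT, on either strand, was present in 25 of the 56 members (44.6%), beside 34.5% of all genes, and the E-box CACGTG in 5 members (8.93%), beside 6.05%. Matches of different motifs did not overlap in the windows of the 8 called members. CpG dinucleotides had a median of 14.5 per window in the members and 6 over all genes. All 8 called members have a GC box in their window, the members called higher as well as those called lower. The windows of Kat6b, Kdm1b, Kdm6a and Sirt2, however, begin within the annotated span of the gene or of another protein-coding gene. Of the 8, only Kdm7a has its whole window outside such spans.

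Among the Kmt and Setd genes, Kmt2a alone was called. Kmt2a (MLL1) methylates lysine 4 of histone H3, the mark of active promoters. Its log2 signal was 6.59, 6.21 and 6.37 in Dicer knockout eggs, 5.59, 5.64 and 5.39 in Dgcr8 knockout eggs and 5.22, 5.43 and 5.58 in wild-type eggs. The Dicer knockout arrays lay above all 6 others, and the Dgcr8 knockout and wild-type arrays overlapped. Kmt2a rose by 0.98 ± 0.13 (log2, SE), a 1.98-fold difference, with a limma adjusted p of 0.00089. Against Dgcr8 knockout eggs the difference was 0.85 (adjusted p 0.0019).

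The other H3 lysine 4 methyltransferases showed small differences. Kmt2b, an enzyme of this group required in mouse oocytes, stood at 9.18, 9.44 and 9.22 in Dicer knockout eggs against 9.35, 9.35 and 9.35 in wild-type eggs. Those groups overlap, with a difference of -0.07 (95% interval -0.25 to 0.12). The 3 wild-type values of Kmt2b are identical as deposited (SD 0). Setd1a, Kmt2c, Kmt2d and Setd1b lay between -0.01 and 0.12 on the log2 scale and were not called. A second probe set of Setd1b, however, was higher by 0.39 with an adjusted p of 0.0265 in a fit over all probe sets with 1 gene. Setd2, which places trimethylation on H3 lysine 36 and is needed for the chromatin of the oocyte, stood at 10.37, 10.09 and 10.21 in Dicer knockout eggs against 9.89, 9.92 and 10.00 in wild-type eggs. Its groups do not overlap, but the difference of 0.29 did not pass (adjusted p 0.184). Kmt2e, which lacks clear methyltransferase activity, had the largest negative difference of the class, -0.27 (adjusted p 0.359). Its arrays read 6.74, 6.22 and 6.74 in Dicer knockout eggs, 7.07, 6.85 and 7.28 in Dgcr8 knockout eggs and 6.80, 6.86 and 6.83 in wild-type eggs. The Dicer knockout arrays were the 3 lowest, and the other groups overlapped. The H4 lysine 20 enzymes Kmt5a, Kmt5b and Kmt5c lay between -0.14 and 0.15. In all, 1 of 16 Kmt and Setd genes was called (6.25%, beside 11.3% of all genes tested), with a median difference of 0.07, beside -0.03 over all genes.

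No arginine methyltransferase passed the test. Prmt7, which makes monomethylarginine, came nearest. It stood at 8.28, 8.01 and 7.54 in Dicer knockout eggs, 7.29, 7.41 and 7.58 in Dgcr8 knockout eggs and 7.44, 7.54 and 7.34 in wild-type eggs. Dicer knockout replicates 1 and 2 were above every other array, while replicate 3 equalled wild-type replicate 2 to 2 decimals. The log2 difference was 0.50 ± 0.17 (SE), adjusted p 0.091. Without Dicer knockout replicate 3 Prmt7 was called, as was Prmt5 without wild-type replicate 3. Prmt5, which makes symmetric dimethylarginine and is needed in germ cells, differed by 0.34 with all arrays (adjusted p 0.139). Prmt3, a methyltransferase of ribosomal protein, had the lowest difference, -0.18, with arrays at 6.94, 7.08 and 6.87 in Dicer knockout eggs against 7.09, 7.21 and 7.13 in wild-type eggs that do not overlap. Prmt1, the main source of asymmetric dimethylarginine, differed by 0.12 (95% interval -0.12 to 0.36). Of the 7 Prmt genes tested 0 were called by limma, beside 11.3% of all genes, and 2 had an unadjusted p under 0.05 (28.6%, beside 23.7% of all genes). Prmt8, a gene of the brain, stayed under a signal of 4 in all 9 arrays and was not tested.

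Among the Kdm lysine demethylases Kdm1b rose and Kdm7a and Kdm6a fell, 3 calls in 17 genes tested (17.6%), beside 11.3% of all genes (4.87% higher and 6.47% lower). Kdm1b (LSD2) removes methylation from H3 lysine 4 and is needed in growing mouse oocytes for maternal imprints. Its log2 signal was 10.58, 10.44 and 10.17 in Dicer knockout eggs, 9.67, 9.81 and 10.10 in Dgcr8 knockout eggs and 9.97, 9.83 and 9.79 in wild-type eggs. The Dicer knockout arrays were the 3 highest of the 9, with replicate 3 close to Dgcr8 knockout replicate 3. Kdm1b rose by 0.53 ± 0.12 (SE), or 1.44-fold, with an adjusted p of 0.0211. The call was lost without Dicer knockout replicates 1 or 2 or wild-type replicates 2 or 3 (highest adjusted p 0.0842), and with arrays centred on their median (0.0503). Part of the gene's span overlaps Dek, and the position of the probes was not checked here.

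Kdm7a, a demethylase of H3 lysines 9 and 27, stood at 10.61, 10.43 and 10.69 in Dicer knockout eggs, 10.87, 10.87 and 11.12 in Dgcr8 knockout eggs and 10.90, 10.94 and 10.94 in wild-type eggs. All Dicer knockout arrays lay below the others, and the log2 difference was -0.35 ± 0.08 (SE; adjusted p 0.0187). Its second probe set went the other way without a call: 9.05 in Dicer knockout eggs and 8.85 in wild-type eggs, a difference of 0.20 (adjusted p 0.452). The call was also lost with arrays centred on their median. The mean of both probe sets gave -0.08 (adjusted p 0.696), so the fall of Kdm7a rests on 1 probe set. Without any 1 wild-type array the adjusted p of the chosen probe set was just above 0.05 (0.0502 to 0.0688).
Kdm6a (UTX) is an X-linked demethylase of H3 lysine 27. It read 10.57, 10.43 and 10.60 in Dicer knockout eggs, 10.81, 10.64 and 10.91 in Dgcr8 knockout eggs and 10.78, 10.76 and 10.81 in wild-type eggs. The Dicer knockout arrays were the 3 lowest, close to Dgcr8 knockout replicate 2. Its difference of -0.25 ± 0.07 (SE) passed by little (adjusted p 0.046), and the call was kept in 2 of the 9 fits with an array left out, those without Dgcr8 knockout replicate 2 or 3 (highest adjusted p 0.145). It was also lost with no floor on the signal, with arrays centred on their median and with plain eBayes. Kdm6b, its autosomal relative, differed by 0.02 and was not called.

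The other Kdm genes tested were not called. Kdm8 (JMJD5) had the largest negative difference of the class in both knockouts, with arrays at 6.62, 7.16 and 6.51 in Dicer knockout eggs, 6.82, 6.86 and 6.55 in Dgcr8 knockout eggs and 6.68, 7.83 and 6.86 in wild-type eggs. Wild-type replicate 2 stood well above all other arrays, and the 95% interval of the Dicer knockout difference was -0.98 to 0.26. Kdm5a, of the H3 lysine 4 demethylases, had the largest positive difference among those not called, 0.18 (adjusted p 0.381), in groups that overlap. Kdm1a (LSD1), essential after fertilization in mouse embryos, differed by -0.06 (95% interval -0.19 to 0.08), and Kdm4a, a maternal demethylase of H3 lysine 9, by -0.16 (-0.37 to 0.04). The 7 Kdm demethylases of H3 lysine 9 lay between -0.35 and 0.08. Kdm5d, a Y-linked gene that an egg cannot carry, stood at 3.39, 3.67 and 3.78 in Dicer knockout eggs, 3.70, 3.76 and 3.65 in Dgcr8 knockout eggs and 3.62, 3.42 and 3.73 in wild-type eggs. All 9 values are under 4, the level used as the floor.

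**Figure D2:**
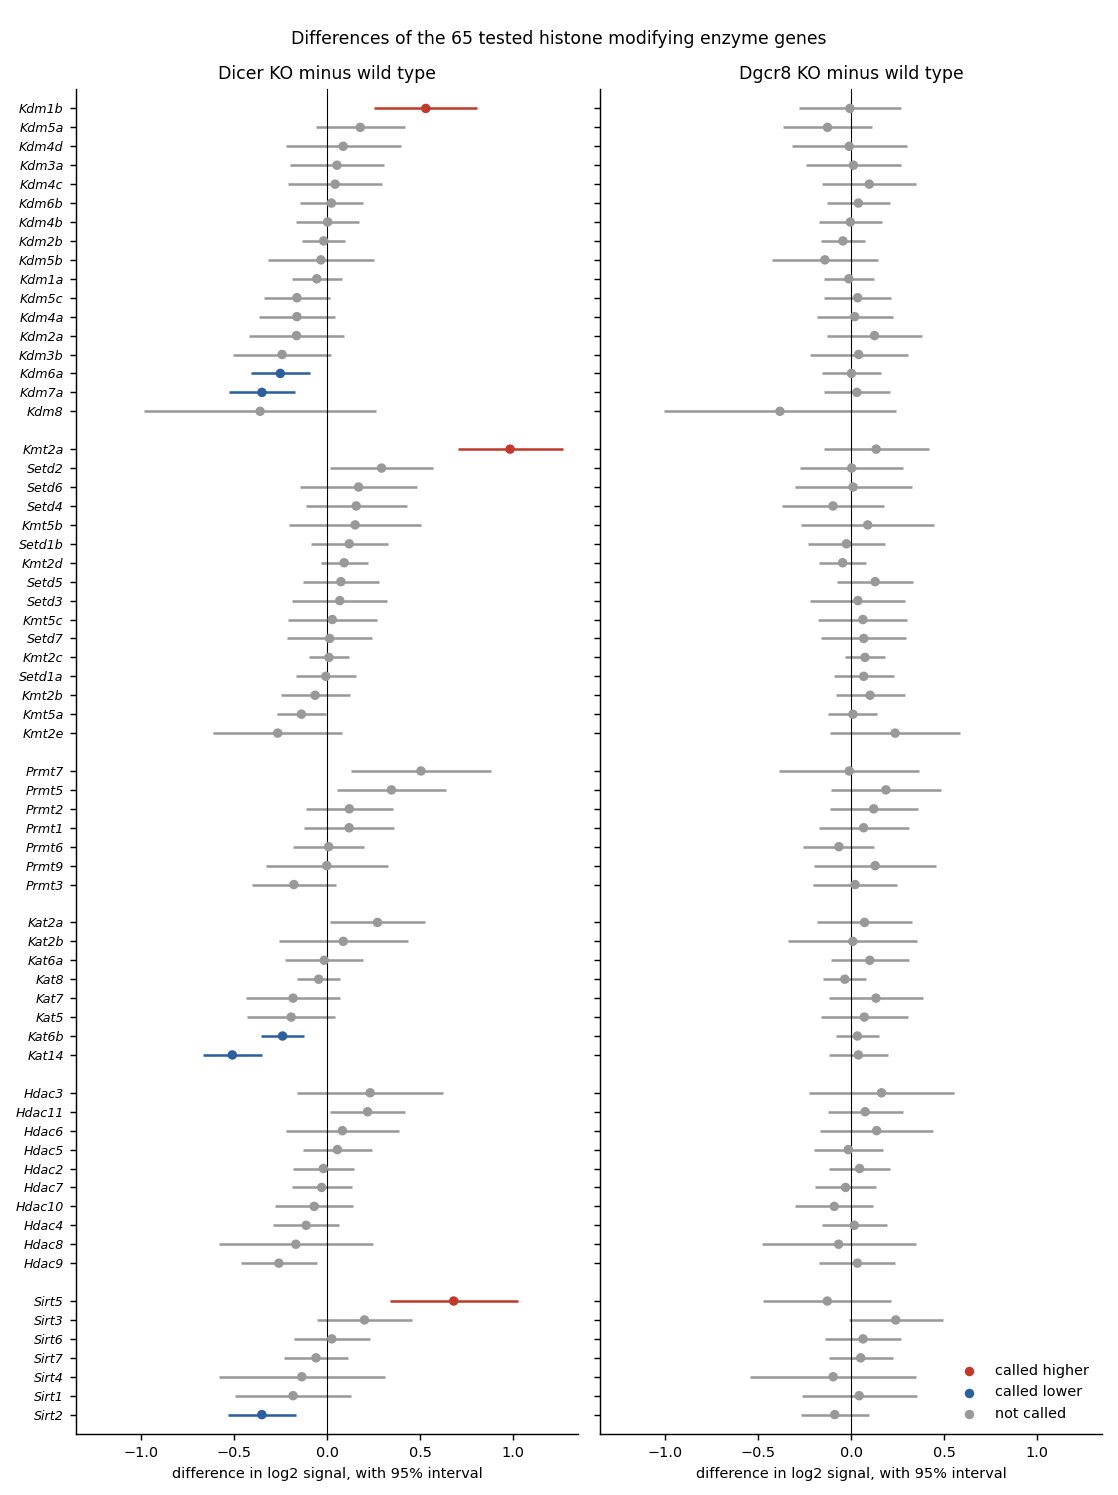
Difference in log2 signal (horizontal axis) of each of the 65 tested members, with its 95% interval, for Dicer knockout minus wild type (left) and Dgcr8 knockout minus wild type (right). Genes run down the page by class (Kdm, Kmt and Setd, Prmt, Kat, Hdac, Sirt), and within a class by the Dicer knockout difference. Coloured points passed the test: 3 higher and 5 lower on the left, and 0 on the right.

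Kat14 and Kat6b fell in Dicer knockout eggs, 2 of 8 Kat genes, beside 6.47% of all genes tested, and 0 rose, beside 4.87%. With 8 genes these counts say nothing of the class. Kat14, an acetyltransferase subunit of the ATAC complex, stood at 10.14, 10.22 and 10.00 in Dicer knockout eggs, 10.68, 10.57 and 10.76 in Dgcr8 knockout eggs and 10.63, 10.57 and 10.70 in wild-type eggs. The Dicer knockout arrays lay clear below the other 6. Kat14 fell by 0.51 ± 0.07 (log2, SE), to 0.702 times the wild-type level, with an adjusted p of 0.00132. The gene Pet117 overlaps part of its span. Other called members whose span overlaps an annotated gene are Kmt2a (Gm39326), Kdm7a (4930599N23Rik) and Sirt2 (Gm19897), besides Kdm1b. Probe positions were not checked for any of them.
Kat6b (MORF), of the MYST family, read 9.97, 9.88 and 9.97 in Dicer knockout eggs, 10.17, 10.22 and 10.25 in Dgcr8 knockout eggs and 10.20, 10.13 and 10.22 in wild-type eggs, with a narrow spread in each group. Its difference was -0.24 ± 0.05 (SE), adjusted p 0.0148. That call was lost without wild-type replicate 1 or 3 (adjusted p up to 0.0679). The other 4 MYST genes had smaller differences: -0.19 in Kat5 (TIP60), -0.18 in Kat7 (HBO1), -0.05 in Kat8 (MOF) and -0.02 in Kat6a. None of these 4 was called by limma. Kat2a (GCN5), an acetyltransferase found in the SAGA complex among others, had a positive difference. It stood at 8.87, 8.59 and 8.51 in Dicer knockout eggs against 8.39, 8.46 and 8.30 in wild-type eggs. Its difference of 0.27 did not pass (adjusted p 0.184), although the groups do not overlap.

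None of the 10 classical deacetylases measured besides Hdac1 passed the test (limma), beside 11.3% of all genes called, and 2 had an unadjusted p under 0.05, beside 23.7% of all genes. Hdac2, the close relative of Hdac1 that is required in mouse oocytes, stood at 10.82, 10.77 and 10.81 in Dicer knockout eggs, 10.93, 10.70 and 10.97 in Dgcr8 knockout eggs and 10.92, 10.82 and 10.73 in wild-type eggs. Its difference was -0.02 in Dicer knockout eggs, with a 95% interval of -0.18 to 0.14. Hdac3, of the NCoR complex, had the largest positive difference, 0.23, and its arrays read 7.11, 6.61 and 6.43 in Dicer knockout eggs against 6.58, 6.63 and 6.24 in wild-type eggs. Dicer knockout replicate 1 alone was above all wild-type arrays in Hdac3, and the adjusted p was 0.513. Hdac9, a class IIa enzyme, had the largest negative difference, -0.26, with arrays at 8.46, 8.37 and 8.58 in Dicer knockout eggs against 8.66, 8.66 and 8.87 in wild-type eggs that do not overlap (adjusted p 0.106). The other class IIa enzymes Hdac4, Hdac5 and Hdac7 lay between -0.11 and 0.05. Hdac6, the tubulin deacetylase, differed by 0.08 and Hdac11 by 0.22.

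Of 7 sirtuins 1 rose and 1 fell, beside 4.87% and 6.47% of all genes tested. Sirt5, a mitochondrial enzyme that removes succinyl and malonyl groups from lysines, stood at 7.77, 8.08 and 7.68 in Dicer knockout eggs, 6.96, 6.88 and 7.28 in Dgcr8 knockout eggs and 7.37, 7.20 and 6.94 in wild-type eggs. The Dicer knockout arrays were the 3 highest. Sirt5 rose by 0.68 ± 0.15 (log2, SE), or 1.6-fold, with an adjusted p of 0.0188. The call was lost without Dicer knockout replicate 2 or wild-type replicates 2 or 3 (highest adjusted p 0.0780).
Sirt2, a mainly cytoplasmic deacetylase of tubulin and other proteins, read 7.98, 7.97 and 7.98 in Dicer knockout eggs, 8.22, 8.28 and 8.21 in Dgcr8 knockout eggs and 8.26, 8.26 and 8.46 in wild-type eggs. Its Dicer knockout arrays were nearly equal and under all 6 others. The difference was -0.35 ± 0.08 (SE) against wild type (adjusted p 0.0204), and -0.26 against Dgcr8 knockout eggs, which did not pass (adjusted p 0.0626). The Sirt2 call against wild type was lost without Dicer knockout replicate 1 or wild-type replicate 3 (highest adjusted p 0.0842). Sirt3, the main mitochondrial deacetylase, differed by 0.20 (adjusted p 0.345) and Sirt4 by -0.14. Sirt1, the nuclear sirtuin of stress response and ageing, had the largest negative difference among those not called, -0.18. Its arrays read 8.93, 9.13 and 8.74 in Dicer knockout eggs against 9.39, 9.07 and 8.89 in wild-type eggs, and the groups overlap. Sirt6 and Sirt7 differed by 0.02 and -0.06.

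**Figure D3:**
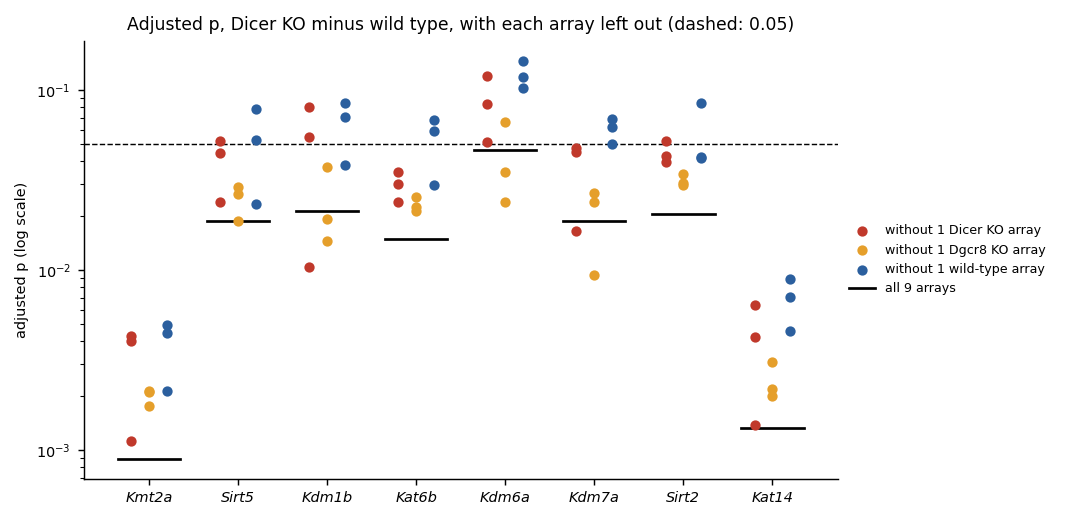
Adjusted p (log scale) of the 8 called members in the Dicer knockout minus wild type comparison. Black lines are the fit with all 9 arrays, points are fits with 1 array left out, and the dashed line is 0.05. Kmt2a and Kat14 stay under 0.01 in every fit, and the other 6 cross 0.05 in at least 2 of the 9.

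The size of the shifts varied between Dicer knockout replicates. Over the 3 members called higher, the median deviation from the wild-type mean was 0.71, 0.80 and 0.52 in the 3 Dicer knockout arrays, against -0.20 to 0.11 in the other 6. Over the 5 members called lower it was -0.32, -0.36 and -0.24, against -0.05 to 0.12. These members were selected by this comparison, so the numbers describe the arrays and support nothing. Over 57 ribosomal protein genes the same measure was 0.74, 0.29 and 0.12 in Dicer knockout eggs and -0.25 to 0.17 in the others. Dicer knockout replicate 3 thus had the smallest shifts on all 3 measures and the highest blood marker level. Their part in the results was not tested beyond the fits without that array, in which Kmt2a, Kdm1b, Sirt5, Kat14, Kat6b, Kdm7a and Sirt2 were still called, Prmt7 was added and Kdm6a was not called. Groups did not overlap for 18 of the 65 members, 6 with higher and 12 with lower Dicer knockout arrays. That is 27.7% of members, beside 26.2% of all genes tested (10% higher and 16.1% lower).

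In Dgcr8 knockout eggs 0 of 65 members passed the test, beside 0.0231% of all genes tested. No member reached an unadjusted limma p under 0.05, beside 2.64% of genes, and no member had groups that did not overlap, beside 6.54% of genes. Log2 differences ran from -0.38 in Kdm8 to 0.24 in Sirt3, with a median of 0.03. For 61 of 65 members the 95% interval lay within 0.5 of 0 on the log2 scale, and for 64 within 1. Kdm8, with its high wild-type replicate 2, is the exception (-1.01 to 0.24). The 8 genes called in Dicer knockout eggs had Dgcr8 knockout differences between -0.13 in Sirt5 and 0.13 in Kmt2a, with 0.04 in Kat14 and -0.01 in Kdm1b. Both comparisons use the same wild-type arrays.

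Dicer knockout and Dgcr8 knockout eggs were also compared directly, which asks what loss of Dicer does beyond loss of Dgcr8. Of the 65 members 3 were higher and 4 lower in Dicer knockout eggs, 10.8% beside 13.4% of all genes tested (5.48% higher and 7.92% lower). Kmt2a, Sirt5 and Kdm1b were higher, and Kat14, Kdm7a, Kat6b and Kdm6a lower. This comparison shares its Dicer knockout arrays with the one above, so both sets of differences are not independent. Sirt5 differed by 0.81 (adjusted p 0.00708), Kdm1b by 0.54 (0.0179) and Kat14 by -0.55 (0.000807). Kat6b, at -0.27 (adjusted p 0.00709), and Kdm7a, at -0.38 (0.0113), were called here with each array left out in turn, though Kdm7a was not with the mean of its probe sets (0.0944). The Kdm1b call was lost without Dicer knockout replicate 1 or Dgcr8 knockout replicates 1 or 2 (highest adjusted p 0.0676), and Kdm6a (-0.25, adjusted p 0.0408) was called in 2 of the 9 such fits. Kmt2e differed by -0.50 and did not pass (adjusted p 0.0621), but was called with the floor at 6 and with the replicate number as a block. Its 3 Dicer knockout arrays lay below the Dgcr8 knockout arrays.

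Enzymes and complex subunits outside the naming rule were read from 9 lists. Of 183 such genes tested, 5 rose and 15 fell in Dicer knockout eggs against wild type, or 10.9% beside 11.3% of all genes (4.87% higher and 6.47% lower). Their median difference was -0.06.
Among 20 other histone methyltransferases 0 rose and 2 fell, Nsd1 (-0.24, adjusted p 0.0143), which acts on H3 lysine 36, and Mecom (-0.67). Ezh2, the H3 lysine 27 methyltransferase, differed by 0.11 and did not pass (adjusted p 0.0576). Of 7 other demethylases, Phf2 fell (-0.34). None of 12 other acetyltransferases was called by limma, and Ncoa3 was nearest (-0.20, adjusted p 0.0643). In the list of 21 histone kinases, ubiquitin enzymes and arginine deiminases 3 fell, all kinases. Haspin, which phosphorylates H3 threonine 3 in mitosis and meiosis, stood at 9.85, 9.96 and 10.06 in Dicer knockout eggs, 10.64, 10.66 and 10.68 in Dgcr8 knockout eggs and 10.55, 10.57 and 10.69 in wild-type eggs. Its Dicer knockout arrays lay below all others, and it fell by 0.65 ± 0.06 (log2, SE; adjusted p 0.000128). The other 2 were Aurka (-0.24) and Aurkc (-0.25), the spindle pole kinase and the germ cell form of the centromere kinase.

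Subunits of the complexes in which these enzymes act moved both ways. Of 24 deacetylase complex subunits 2 rose and 2 fell (16.7% called, beside 11.3% of all genes). Tbl1xr1, of the NCoR complex, stood at 10.77, 10.62 and 10.85 in Dicer knockout eggs, 10.28, 10.04 and 10.40 in Dgcr8 knockout eggs and 10.00, 9.92 and 9.91 in wild-type eggs. It rose by 0.80 ± 0.09 (log2, SE; adjusted p 0.000439), with every Dicer knockout array above the other 6. Rcor3 of the CoREST family rose by 0.53, while Mideas of the mitotic deacetylase complex (-0.61) and Gatad2b of NuRD (-0.13) fell. Of 37 acetyltransferase complex subunits 2 rose, Trrap (0.62) and Supt7l (0.51), and 3 fell, Ing3 (-0.42), Brpf3 (-0.48) and Tada1 (-0.57), or 13.5% called, beside the same 11.3%. Trrap is a scaffold of the SAGA and TIP60 complexes. Of 23 Polycomb subunits 0 rose and 3 fell, Mtf2 (-0.34), Suz12 (-0.22) and Pcgf3 (-0.53), beside 6.47% of all genes that fell. Among 12 subunits of H3 lysine 4 methyltransferase complexes limma called 0, with Rbbp5 nearest (-0.21, adjusted p 0.0882). Of 27 readers of acetylated and methylated histones, Baz2b rose (0.41) and Baz2a fell (-0.39), a pair of related bromodomain proteins, or 7.41% called. In Dgcr8 knockout eggs none of the 183 genes was called by limma, beside 0.0231% of all genes, and 4 had an unadjusted p under 0.05 (2.19%, beside 2.64% of all genes).

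**Figure D4:**
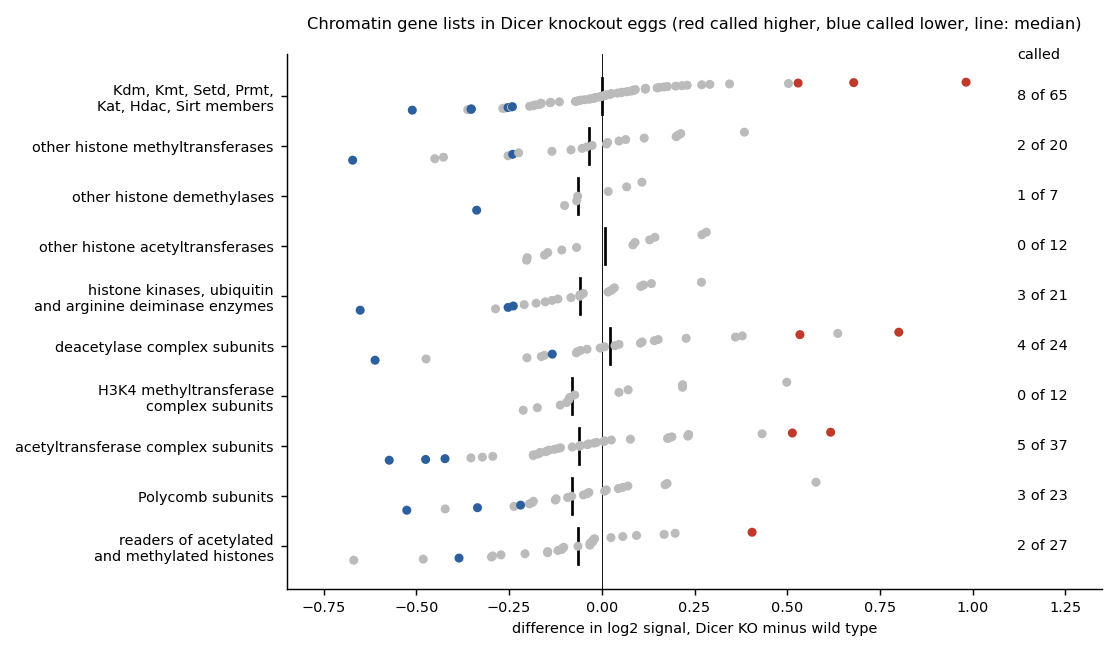
Difference in log2 signal, Dicer knockout minus wild type (horizontal axis), of each tested gene in the members and in 9 lists of related genes, 1 row per list, spread vertically only for legibility. Red points were called higher, blue points lower and grey points not called, black lines are medians, and the count called stands at the right. Called genes lie on both sides of 0 in the members, and the list medians lie between -0.08 and 0.02.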

How the data were processed

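Values were log2 signals per probe set of a 1-colour array, made by the authors with GCRMA per the submitters' processing notes (background correction, normalization and summary; its version and settings are not stated). The 35557 deposited probe sets include 21789 with 1 gene in the platform annotation, 1621 with several and 12147 unnamed here; 21698 matched RefSeq (GRCm38.p6) by Entrez identifier, and no member's symbol had to be updated. No member is named in a probe set with several genes. The deposited values hold exact ties: pairs of wild-type arrays had the same value in 985 to 1144 of the genes tested. Pairs within the Dicer knockout group tied in 615 to 781 genes, and within the Dgcr8 knockout group in 647 to 915. The effect of ties on the spread was not tested. Of 19938 genes, 17324 passed the floor and were tested (limma 3.58.1, R 4.3.3; a linear model per gene, its variances moderated by eBayes with a trend and robust estimation through statmod 1.5.0), two-sided, all 9 arrays in 1 fit, no covariate. Precision is limited by how many arrays there are, and the 95% interval of a member's log2 difference had a median half-width of 0.24. The fit was tested on simulated data (17324 genes, 200 of them changed between Dicer knockout and wild type). It recovered 56% of changes of 0.5 (log2) and 87% of changes of 1. Simulated noise was independent between genes, and far fewer genes changed than the 1964 called here, so the rates may differ in the real data. The members and lists were chosen with earlier results of these data known. Members called in any comparison were given in full, as were Kdm1b and Kdm5d. The uncalled members with the largest increase and decrease in each class were named, with values by array except for Kdm5a, Kat5 and Sirt3. Some of those values leave out the Dgcr8 knockout arrays. Up to 4 genes of each related list were named by adjusted p. Other genes named (among them Kmt2b, Hdac2, Kdm1a, Kdm4a, Prmt1, Prmt5 and Ezh2, and other list genes) were chosen for their role or after their values were seen. Alternatives changed the floor, scaling, probe set choice, eBayes settings, arrays in the fit, array weights, replicate block, threshold and arrays left out.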

Additional observations from a re-analysis of the deposited data

How the results depend on the processing

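Kmt2a and Kat14 were called in the Dicer knockout against wild-type comparison under all 19 alternatives run for each gene. In Kmt2a the floor of 6 was met only by the Dicer knockout arrays, so that alternative is no separate check of its call. At an adjusted p under 0.01, 1 member was called higher (Kmt2a) and 1 lower (Kat14) against wild type. Against Dgcr8 knockout eggs 2 were higher (Kmt2a and Sirt5) and 2 lower (Kat14 and Kat6b) at that threshold. With arrays centred on their median, 3 members were called lower against wild type (Kat14, Kat6b and Sirt2). In that fit 1584 of all 17343 genes tested were called in either direction, beside 1964 of 17324 in the main fit. With the floor at 6, 7 were lower against Dgcr8 knockout eggs, Hdac9, Kmt2e and Sirt2 being added, and 4 were higher, with Prmt7 added. Over all genes in that fit 2591 of 10181 were called in either direction, beside 2321 of 17324 in the main fit. With each array left out in turn, 1 to 4 members were called higher and 1 to 5 lower against wild type, 2 to 5 higher and 3 to 6 lower against Dgcr8 knockout eggs, and 0 in the Dgcr8 knockout against wild-type comparison. The lowest counts against wild type were 1 higher without Dicer knockout replicate 2 or wild-type replicate 2, and 1 lower without wild-type replicate 3. Over all genes, 1964 were called against wild type, 981 of them at an adjusted p under 0.01, and 1238 genes without wild-type replicate 3. Against Dgcr8 knockout eggs the counts were 2321, 1127 at an adjusted p under 0.01, and 1515 without Dgcr8 knockout replicate 1. The second probe set of Kdm7a, like that of Setd1b an alternative chosen after seeing the data, reversed the direction to 0.20. The cause of these differences was not tested, except that a stricter threshold gives fewer calls by construction.

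The replicate block left 3 members called higher and 5 lower against wild type, 3 higher and 5 lower against Dgcr8 knockout eggs (Kmt2e was gained), and 0 in the Dgcr8 knockout against wild-type comparison. Over all 17324 genes in that fit, 1797 were called against wild type, beside 1964 in the main fit. Against Dgcr8 knockout eggs 2105 were called, beside 2321. In the Dgcr8 knockout against wild-type comparison 3 were called, beside 4. Deviations from the group means had an r of -0.24 to 0.11 between same-numbered arrays of different genotypes. Between differently numbered arrays of different genotypes r was -0.16 to 0.25. What the numbers mark is not stated, and these correlations cannot settle whether arrays were paired.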
